A study of Mus musculus with 12 samples.

Results

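The circadian clock genes *Arntl*, *Clock*, *Per1*, *Per2*, *Cry1*, *Cry2*, *Nr1d1*, *Nr1d2*, *Dbp* and *Bhlhe40* were followed in bone marrow-derived macrophages (BMDMs) as the rows of the gene counts with these symbols, 10 of 12960 genes. All 10 were in the counts, and all 10 passed the filter on low counts, which kept 10822 genes for testing. The BMDMs were grown in L929-conditioned medium, a source of M-CSF, from marrow of wild-type (WT) mice or of AMPKβ1−/− mice, which lack the gene of the β1 subunit of AMPK, *Prkab1*, and keep the gene of the other β subunit. Cultures of each genotype were kept for 6 h with 0.1% DMSO as vehicle or with PF-06409577 (PF) at 10 μM, an activator selective for AMPK complexes that hold the β1 subunit, and 3 RNA sequencing libraries were made in each of the 4 groups. Age, sex and number of mice behind a library and the hour of harvest were not given in the sources used here, so p values measure the spread between these libraries, which may be technical.

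The circadian clock is a transcriptional feedback loop that runs in nearly every cell, macrophages included. The activators CLOCK and BMAL1 (encoded by *Arntl*) bind E-box sequences as a pair and drive *Per*, *Cry*, *Nr1d1*, *Nr1d2*, *Dbp* and *Bhlhe40*, whose products, other than DBP, then repress the activators' work or their genes. AMPK is known to enter this loop by phosphorylating cryptochrome proteins and marking them for degradation, an event at the protein level that RNA counts do not measure. A single time point gives the level of each transcript at that hour, and neither the phase nor the amplitude of a rhythm.

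Between 8935609 and 14358180 counts were assigned to genes per library, and 3 counts equal 0.196 to 0.321 CPM, which are counts per 1000000 counts of a library. *Prkab1* had 37.3 to 45.3 CPM in the 6 WT libraries and 6.05 to 9.42 CPM in the 6 AMPKβ1−/− libraries, so reads assigned to the targeted gene were fewer but not absent. The macrophage markers *Adgre1*, *Csf1r*, *Cd68*, *Itgam*, *Mertk*, *Fcgr1*, *Lyz2* and *Cd14* summed to 25191 to 29681 CPM. Of the 7 granulocyte, 6 lymphoid, 5 dendritic and 5 fibroblast markers, 4, 0, 4 and 5 were in the counts, and their sums reached at most 0.958, 0, 1.37 and 9.66 CPM. The fibroblast sum was 1.31 to 3.18 CPM in WT and 2.53 to 9.66 CPM in AMPKβ1−/− libraries, and its part in the genotype differences was not tested. In bulk RNA of this kind, fewer cells with a transcript and less of it per cell cannot be told apart. The relation of counts to the GC content of transcripts differed between the groups. The slope of log2 CPM (relative to a gene's mean) per 10 percentage points of GC averaged 0.541 in WT vehicle (range 0.361 to 0.728), 0.160 in WT PF (−0.0550 to 0.368), −0.269 in AMPKβ1−/− vehicle (−0.359 to −0.0999) and −0.432 in AMPKβ1−/− PF (−0.517 to −0.335). Values from a second fit, in which the trend of each library with GC content and transcript length was taken out, are called GC-adjusted and stand beside the clock genes they move.

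The E-box is the sequence through which CLOCK:BMAL1 and the competing BHLHE40 and BHLHE41 proteins reach clock genes. In the RefSeq windows from 250 bases before to 50 bases after a transcript start (GRCm38.p6), 8 of the 10 clock genes were found, in 12 windows, and *Per2* and *Bhlhe40* were not. An E-box (CACGTG, which reads the same on both strands) stood in windows of *Per1* and *Cry1*, and its relative CACGTT, read on both strands, in those of *Cry1*, *Cry2* and *Nr1d1*. Across all 32851 RefSeq windows of mouse genes, 7.15% held CACGTG and 4.68% held CACGTT. The ROR response element core TAGGTCA lay in 1 window of *Arntl* (2.61% of all windows). The D-box (TTATGTAA or TTACGTAA, 1.06% of windows) and the cyclic AMP response element (TGACGTCA, 1.79%) were in none of the 12 windows. Every stretch that held CACGTG outside exons follows, for the 10 genes and for a wider list of clock genes described below, of up to 250 bases before the RefSeq start and without bases in GENCODE M21 exons, in lower case 5′ to 3′ on the strand of the gene. Capitals mark CACGTG, and AACGTG where CACGTT lies on the other strand. From the wider list, *Bhlhe41*, *Cipc* and *Ciart* are repressors of the same loop, *Tef* is a relative of *Dbp* and *Sirt1* is an NAD+-dependent deacetylase.
*Cry1* (chr10:85185065-85185304, minus strand): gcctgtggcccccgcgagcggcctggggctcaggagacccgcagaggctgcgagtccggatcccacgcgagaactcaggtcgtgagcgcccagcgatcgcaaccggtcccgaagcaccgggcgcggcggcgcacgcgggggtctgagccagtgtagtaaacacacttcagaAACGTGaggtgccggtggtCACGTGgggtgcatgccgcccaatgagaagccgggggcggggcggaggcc
*Per1* (chr11:69098699-69098947, plus strand): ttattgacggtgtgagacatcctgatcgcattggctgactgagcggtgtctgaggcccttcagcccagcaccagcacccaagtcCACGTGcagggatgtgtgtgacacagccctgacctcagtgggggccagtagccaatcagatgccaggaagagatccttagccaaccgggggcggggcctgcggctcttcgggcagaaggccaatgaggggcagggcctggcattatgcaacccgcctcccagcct
*Bhlhe41* (chr6:145865559-145865670, minus strand): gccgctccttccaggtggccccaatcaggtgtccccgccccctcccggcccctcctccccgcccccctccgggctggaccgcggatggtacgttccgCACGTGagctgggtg
*Cipc* (chr12:86947251-86947342, plus strand): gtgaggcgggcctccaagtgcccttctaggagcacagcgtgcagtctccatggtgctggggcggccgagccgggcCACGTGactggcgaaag
*Ciart* (chr3:95882252-95882478, minus strand): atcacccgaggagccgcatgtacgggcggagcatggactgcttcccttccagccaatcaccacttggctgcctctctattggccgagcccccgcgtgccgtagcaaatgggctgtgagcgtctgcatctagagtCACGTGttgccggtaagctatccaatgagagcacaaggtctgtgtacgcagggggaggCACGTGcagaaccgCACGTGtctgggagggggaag
*Tef* (chr15:81811164-81811413, plus strand): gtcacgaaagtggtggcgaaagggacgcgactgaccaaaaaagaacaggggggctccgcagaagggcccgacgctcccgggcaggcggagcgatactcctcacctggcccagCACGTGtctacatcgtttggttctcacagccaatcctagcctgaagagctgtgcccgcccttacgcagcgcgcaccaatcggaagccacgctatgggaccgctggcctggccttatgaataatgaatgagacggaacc
*Sirt1* (chr10:63339051-63339285, minus strand): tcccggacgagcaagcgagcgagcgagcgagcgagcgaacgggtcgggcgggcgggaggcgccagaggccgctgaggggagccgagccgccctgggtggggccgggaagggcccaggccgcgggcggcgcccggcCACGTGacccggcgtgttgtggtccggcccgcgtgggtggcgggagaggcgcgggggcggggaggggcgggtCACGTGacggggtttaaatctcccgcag
The E-box began 60 bases upstream of the start in *Cry1*, with CACGTT at 79 bases, and 166 bases upstream in *Per1*, 153 bases in *Bhlhe41*, 17 bases in *Cipc*, 138 bases in *Tef*, 115 and 43 bases in *Sirt1* and 116, 58 and 44 bases in *Ciart*. The stretches of *Cry1*, *Bhlhe41* and *Ciart* lie upstream of the gene as GENCODE draws it, and those of *Per1*, *Cipc*, *Tef* and *Sirt1* in an intron of its longer transcripts. A match of letters is a description of the window and does not show that a factor bound there.

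Per kilobase of the longest coding transcript, *Dbp* was the most abundant of the 10 in every group, with 19.8 ± 2.02 CPM per kb in WT vehicle and 12.9 ± 1.35 in AMPKβ1−/− vehicle (mean ± SD of 3 libraries, as for all group values below). In WT vehicle it was followed by *Per1* (7.88 ± 0.325 CPM per kb) and *Bhlhe40* (6.94 ± 0.492). *Cry2* (3.59 ± 0.172), *Cry1* (3.39 ± 0.281) and *Arntl* (3.15 ± 0.493) lay within their spread of each other. *Nr1d1* (2.17 ± 0.520) and *Nr1d2* (1.37 ± 0.341) came next, with a gap within the sum of their SDs, and *Per2* (0.507 ± 0.141) and *Clock* (0.240 ± 0.0219) were the scarcest. The order was not the same in the other groups. With PF in WT, *Bhlhe40* stood above *Per1* (10.4 ± 0.378 against 5.97 ± 0.364 CPM per kb). In AMPKβ1−/− vehicle *Nr1d2* had 4.21 ± 0.183 CPM per kb, within the spread of *Cry1* (4.41 ± 0.482), *Arntl* (4.13 ± 0.342) and *Bhlhe40* (3.95 ± 0.156), and *Per2* replaced *Clock* at the bottom (0.579 ± 0.0810 against 1.17 ± 0.274).

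**Figure D1:**
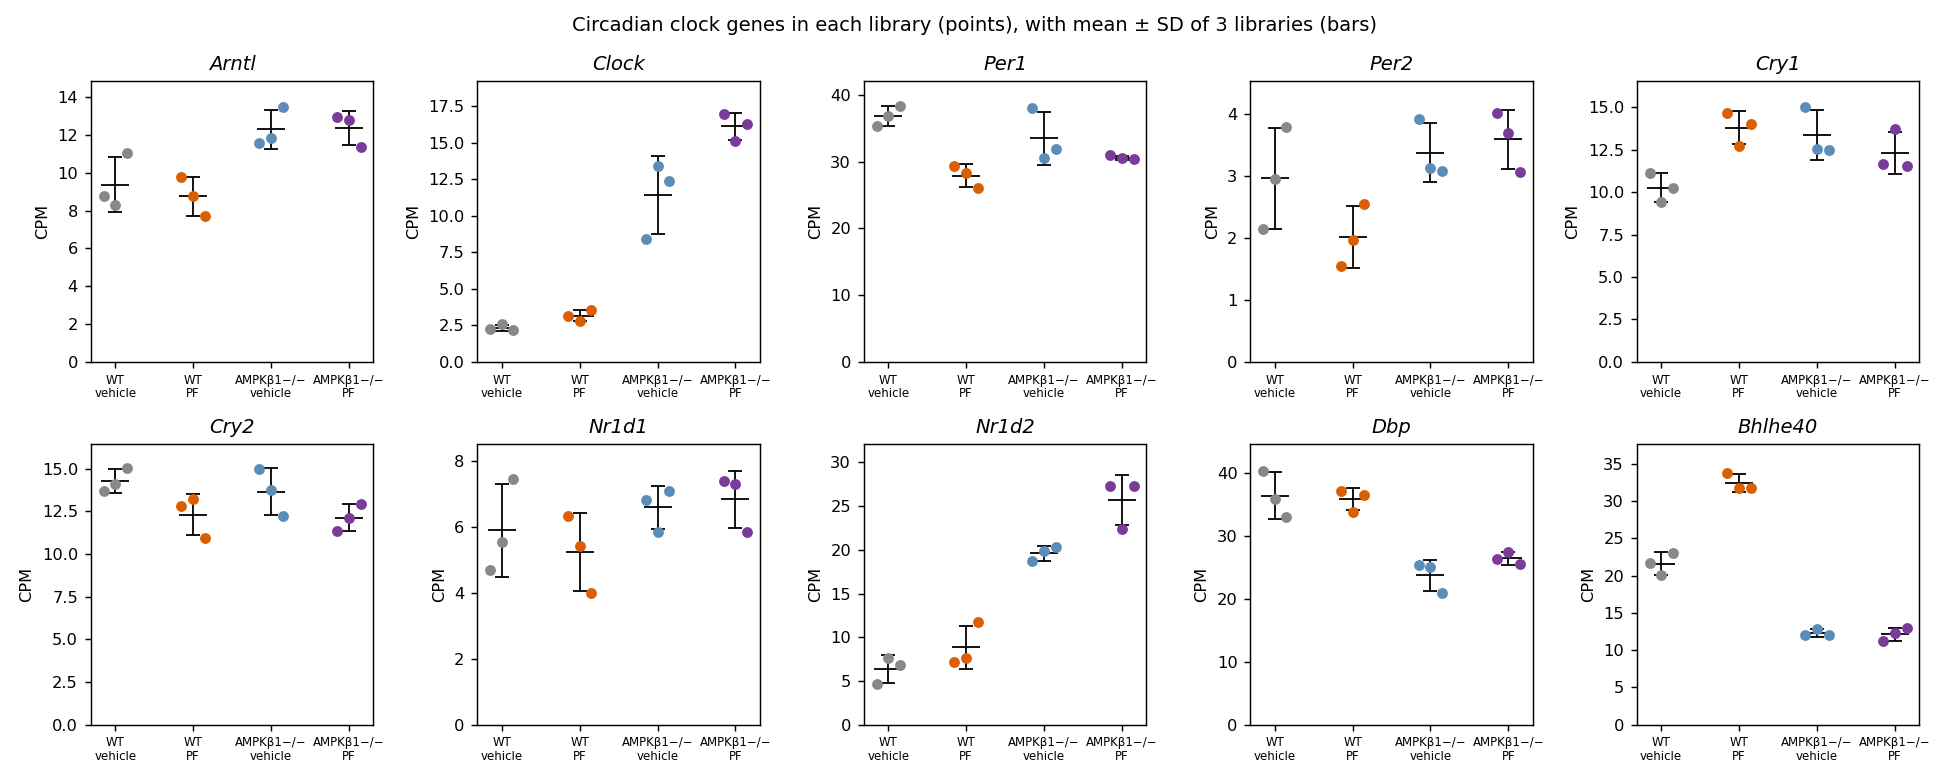
CPM (TMM-normalized) of the 10 clock genes on linear axes from 0, with a point for each library and bars for the mean ± SD of the 3 libraries of a group. *Bhlhe40* is highest with PF in WT and lowest in AMPKβ1−/− BMDMs, and *Clock* and *Nr1d2* are higher in every AMPKβ1−/− library than in any WT library.

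The first comparison asked which clock genes responded to PF in WT BMDMs. *Bhlhe40* and *Cry1* rose to 1.5-fold and 1.35-fold, and *Per1* fell to 0.756-fold, all of them genes of repressors in the loop. These 3 of 10 passed an adjusted p of 0.05 (edgeR's quasi-likelihood test, Benjamini-Hochberg over all tested genes), where 15.9% of all tested genes did (756 higher and 969 lower, and 1045 and 587 with library size alone in place of TMM). None of the 10 passed the study's threshold for a differentially expressed gene (DEG), an adjusted p below 0.05 with a log2 fold change above 0.8 or below −0.8, which 1.52% of tested genes passed by edgeR. The study applied this threshold with DESeq2, so that share is not the study's own. The 3 libraries with PF did not overlap those with vehicle in 5 of 10 clock genes, against 32.2% of tested genes: *Clock*, *Cry1* and *Bhlhe40* were higher in each PF library, and *Per1* and *Cry2* lower. The median log2 fold change of the 10 was −0.06, and that of all tested genes 0.005. GC-adjusted, *Bhlhe40* and *Cry1* passed and *Per1* did not, a split of 2 higher and 0 lower, and 6.86% of tested genes passed.

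In AMPKβ1−/− BMDMs, PF changed 0 of the 10 clock genes by edgeR, and 0 by DESeq2 and limma-voom, where 0.0554% of tested genes passed by edgeR. At an unadjusted p below 0.05, *Clock* and *Nr1d2* passed, 2 of 10 against 4.98% of tested genes. *Clock*, *Nr1d2* and *Dbp* were higher in each PF library than in any vehicle library, 3 of 10 against 14.5% of tested genes. The test of whether the responses of the genotypes differed (WT minus AMPKβ1−/−) also called 0 of 10 by edgeR, DESeq2 and limma-voom, where 0.416% of tested genes passed by edgeR. At an unadjusted p below 0.05, *Cry1* and *Bhlhe40* passed this test, 2 of 10 against 14.3% of tested genes. *Bhlhe40* passed it after adjustment in the GC-adjusted fit, where 1.44% of tested genes did.

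The genotypes were then compared within each treatment. With vehicle, *Clock* (4.87-fold), *Nr1d2* (3.06-fold), *Arntl* (1.31-fold) and *Cry1* (1.30-fold) were higher in AMPKβ1−/− than in WT BMDMs, and *Bhlhe40* (0.570-fold) and *Dbp* (0.654-fold) lower. These are 6 of 10 clock genes, where 59.7% of tested genes passed, so the share of the clock genes was near that of all genes. The threshold for DEGs was passed by *Clock*, *Nr1d2* and *Bhlhe40*, 3 of 10 against 17.8% of tested genes. With PF in both genotypes, 6 of 10 differed again, where 47.1% of tested genes passed: *Clock* (5.05-fold), *Nr1d2* (2.89-fold), *Per2* (1.77-fold) and *Arntl* (1.42-fold) were higher and *Bhlhe40* (0.374-fold) and *Dbp* (0.738-fold) lower. Of these, *Clock*, *Nr1d2*, *Per2* and *Bhlhe40* were DEGs (14.3% of tested genes). The libraries of the genotypes did not overlap in 6 of 10 clock genes with vehicle, against 62.9% of tested genes, and in 7 of 10 with PF, against 59.9%. The contrasts between genotypes share no library with each other, but each shares libraries with the PF contrasts. The GC-adjusted calls were 4 higher and 1 lower with vehicle (36.9% of tested genes passed) and 5 higher and 1 lower with PF (41.5%). Library size alone in place of TMM moved the median log2 fold change of all tested genes to 0.183 between the vehicle groups and 0.146 between the PF groups. On that scale 4296 genes were higher and 1600 lower with vehicle, against 3216 and 3249 with TMM. With PF it gave 3444 higher and 1359 lower, against 2613 and 2481, and 6 of the 10 clock genes were higher and 2 lower.

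**Figure D2:**
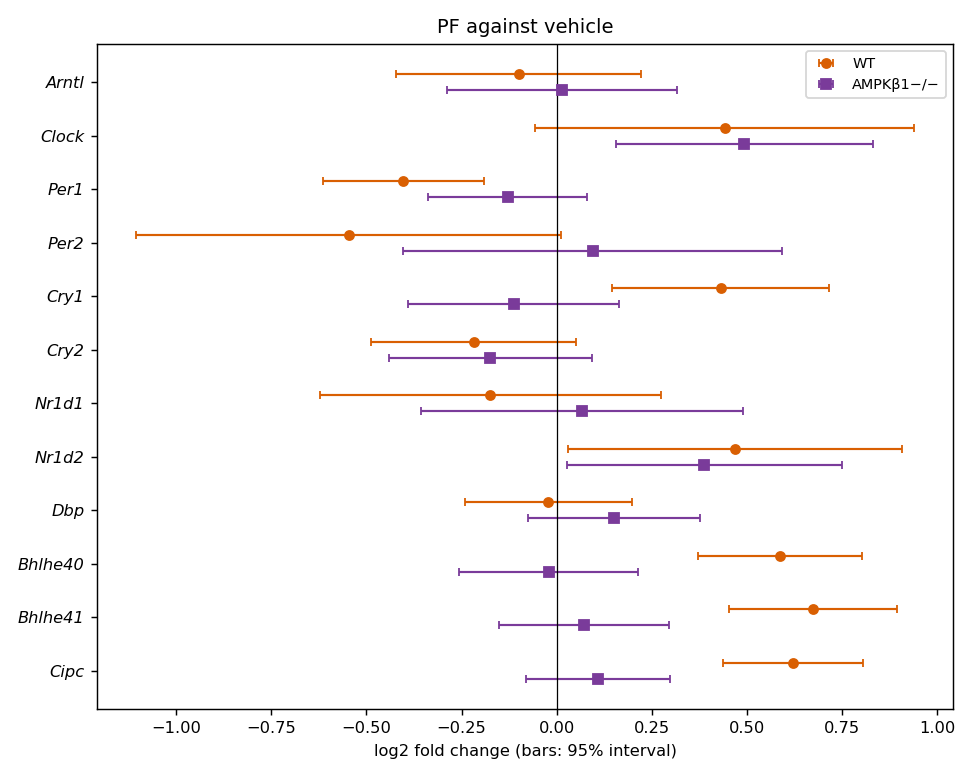
Log2 fold change of PF against vehicle in WT (circles) and AMPKβ1−/− BMDMs (squares) with 95% intervals, for the 10 clock genes and for *Bhlhe41* and *Cipc*. *Cry1*, *Bhlhe40*, *Bhlhe41* and *Cipc* lie above 0 in WT with intervals that leave out 0, and their AMPKβ1−/− intervals include 0. The difference of their responses did not pass by edgeR (adjusted p = 0.211, 0.0904, 0.0901 and 0.0841). The *Nr1d2* intervals lie above 0 in both genotypes, and that of *Clock* in AMPKβ1−/− BMDMs alone. The *Per1* interval lies below 0 in WT and includes 0 in AMPKβ1−/− BMDMs.

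The activators come first. *Arntl* (chromosome 7, 113207465 to 113314126, plus strand, GENCODE M21 on GRCm38) encodes BMAL1, the obligate partner of CLOCK. Its 3 WT vehicle libraries had 8.77, 8.31 and 11.0 CPM and its WT PF libraries 9.78, 8.80 and 7.69. AMPKβ1−/− libraries held 11.6, 11.9 and 13.5 CPM (vehicle) and 12.98, 12.8 and 11.3 CPM (PF). Every AMPKβ1−/− library thus lay above every WT library, while PF and vehicle overlapped in each genotype. The log2 fold change with PF was −0.10 (SE 0.15, edgeR adjusted p = 0.649) in WT and 0.01 (SE 0.14, adjusted p = 0.992) in AMPKβ1−/− BMDMs. Between genotypes it was 0.39 (SE 0.15, adjusted p = 0.0326) with vehicle and 0.50 (SE 0.15, adjusted p = 0.0108) with PF. GC-adjusted, the vehicle difference was 0.15 (adjusted p = 0.439) and the PF difference 0.37 (adjusted p = 0.0445). The vehicle call was also lost without WT vehicle library 1 or 2 or AMPKβ1−/− vehicle library 2 or 3 (adjusted p = 0.0960, 0.123, 0.0591 and 0.114).

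*Clock* (chromosome 5, 76209868 to 76304792, minus strand), the DNA-binding partner of BMAL1, was the scarcest member in WT BMDMs, with 21, 28 and 22 counts in the vehicle libraries and 37, 30 and 46 in the PF libraries. These are 2.25, 2.58 and 2.19 CPM with vehicle and 3.17, 2.81 and 3.54 CPM with PF. In AMPKβ1−/− BMDMs the values were 8.39, 13.4 and 12.4 CPM under vehicle and 16.99, 15.2 and 16.3 CPM under PF. The 4 groups did not overlap, and lay in the order WT vehicle, WT PF, AMPKβ1−/− vehicle, AMPKβ1−/− PF. The PF differences did not pass the test, with a log2 fold change of 0.44 (SE 0.23, edgeR adjusted p = 0.188) in WT and 0.49 (SE 0.16, adjusted p = 0.527) in AMPKβ1−/− BMDMs. The genotype differences were 2.28 (SE 0.20, adjusted p = 7.05e-06) with vehicle and 2.34 (SE 0.18, adjusted p = 5.09e-07) with PF. *Clock* transcripts have 42.1% GC, in the lowest decile of tested genes, whose median log2 fold change was 1.23 with vehicle and 1.04 with PF. The GC-adjusted *Clock* differences were 1.07 (adjusted p = 0.000343) and 1.27 (adjusted p = 1.09e-05). The PF response of *Clock* in WT was then 0.06 (adjusted p = 0.908).

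The *Per* genes encode the partners of the cryptochromes in the repressor complex. *Per1* (chromosome 11, 69095217 to 69109960, plus strand) had 35.3, 36.8 and 38.3 CPM in WT vehicle and 29.3, 28.3 and 26.0 CPM in WT PF. Among AMPKβ1−/− libraries there were 38.0, 30.6 and 31.9 CPM (vehicle) and 30.9, 30.5 and 30.3 CPM (PF). The WT groups were apart, with PF lower, and the AMPKβ1−/− groups overlapped. *Per1* fell by 0.40 on the log2 scale in WT (SE 0.10, edgeR adjusted p = 0.0179). The AMPKβ1−/− response was −0.13 (SE 0.10, edgeR adjusted p = 0.982). The difference of these responses was −0.27 (95% interval −0.57 to 0.02, adjusted p = 0.391). *Per1* transcripts have 59.4% GC, in the highest decile, where 28.6% of tested genes passed in this contrast and the median log2 fold change was −0.26. The GC-adjusted response of *Per1* in WT was −0.11 (adjusted p = 0.429). The call was also lost without WT vehicle library 3 (adjusted p = 0.0599), WT PF library 2 (0.0578) or WT PF library 3 (0.0920). Between genotypes *Per1* did not pass, at −0.14 (SE 0.10, edgeR adjusted p = 0.241) with vehicle and 0.14 (SE 0.10, adjusted p = 0.277) with PF. With PF every AMPKβ1−/− library lay above every WT library. The vehicle difference passed without AMPKβ1−/− vehicle library 1 (adjusted p = 0.0483), and the PF difference with library size alone (adjusted p = 0.0249).

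*Per2* (chromosome 1, 91415982 to 91459324, minus strand) was measured on few counts, between 18 and 48 per library. It had 2.14, 2.95 and 3.78 CPM in WT vehicle and 1.54, 1.97 and 2.54 CPM in WT PF. AMPKβ1−/− libraries held 3.92, 3.13 and 3.08 CPM (vehicle) and 4.01, 3.69 and 3.07 CPM (PF). The WT groups overlapped, and with PF every AMPKβ1−/− library was above every WT library. The log2 fold change with PF was −0.55 in WT (95% interval −1.10 to 0.01, edgeR adjusted p = 0.149) and 0.09 in AMPKβ1−/− BMDMs (adjusted p = 0.985). Between the PF groups *Per2* was higher in AMPKβ1−/− BMDMs by 0.82 on the log2 scale (SE 0.25, edgeR adjusted p = 0.0142), and by 0.72 when GC-adjusted (adjusted p = 0.0206). That call was lost without WT PF library 1 (adjusted p = 0.0667) or AMPKβ1−/− PF library 1 (adjusted p = 0.0579). Between the vehicle groups the difference was 0.18 (SE 0.24, adjusted p = 0.538).

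The cryptochromes repress CLOCK:BMAL1 directly. *Cry1* (chromosome 10, 85131700 to 85185064, minus strand), whose E-box is shown above, had 11.1, 9.41 and 10.3 CPM in WT vehicle and 14.7, 12.7 and 14.001 CPM in WT PF. In AMPKβ1−/− BMDMs *Cry1* had 15.04, 12.5 and 12.5 CPM under vehicle and 11.7, 13.7 and 11.5 CPM under PF. The WT vehicle group was thus the low one, below each library of the other 3 groups, whose ranges overlapped. *Cry1* rose with PF in WT by 0.43 on the log2 scale (SE 0.13, edgeR adjusted p = 0.0421), and the GC-adjusted value was also 0.43 (adjusted p = 0.0431). In AMPKβ1−/− BMDMs it was −0.11 (95% interval −0.39 to 0.16, adjusted p = 0.982). The responses differed by 0.54 (95% interval 0.14 to 0.94), which did not pass the adjustment (adjusted p = 0.211). The WT call stood close to the threshold: it was lost when any 1 of the 12 libraries was left out, other than AMPKβ1−/− vehicle library 1, with an adjusted p of 0.0504 to 0.127, while the log2 fold change stayed between 0.37 and 0.49. Between the vehicle groups *Cry1* was higher in AMPKβ1−/− BMDMs by 0.38 (SE 0.14, adjusted p = 0.0236), and by 0.50 when GC-adjusted (adjusted p = 0.00462). That call was lost without WT vehicle library 2 (adjusted p = 0.0849) or AMPKβ1−/− vehicle library 1 (adjusted p = 0.0976).

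*Cry2* (chromosome 2, 92403646 to 92434043, minus strand) had 13.7, 14.1 and 15.03 CPM in WT vehicle and 12.8, 13.2 and 10.9 CPM in WT PF, and in AMPKβ1−/− BMDMs 14.95, 13.8 and 12.2 CPM (vehicle) and 11.3, 12.1 and 12.9 CPM (PF). The WT PF libraries were all below the WT vehicle libraries, while in AMPKβ1−/− BMDMs the groups overlapped. None of the 5 contrasts passed for *Cry2* by edgeR, with adjusted p values from 0.225 to 0.982. The log2 fold change with PF was −0.22 in WT (95% interval −0.49 to 0.05) and −0.17 in AMPKβ1−/− BMDMs (95% interval −0.44 to 0.09). The GC-adjusted WT value was −0.00045.

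*Nr1d1* and *Nr1d2* encode the nuclear receptors REV-ERBα and REV-ERBβ, which repress *Arntl* and, in macrophages, inflammatory genes. *Nr1d1* (chromosome 11, 98767932 to 98775333, minus strand) had 4.70, 5.54 and 7.46 CPM in WT vehicle and 6.35, 5.43 and 4.0003 CPM in WT PF. AMPKβ1−/− libraries held 6.84, 5.87 and 7.11 CPM (vehicle) and 7.41, 7.30 and 5.86 CPM (PF). All pairs of groups compared overlapped. The log2 fold change with PF was −0.18 (SE 0.21, edgeR adjusted p = 0.562) in WT and 0.07 (SE 0.20, adjusted p = 0.987) in AMPKβ1−/− BMDMs. Between genotypes it was 0.15 (adjusted p = 0.546) with vehicle and 0.39 (adjusted p = 0.127) with PF, and the GC-adjusted values passed in both, at 0.47 (adjusted p = 0.0467) and 0.53 (adjusted p = 0.0228). *Nr1d1* shares 263 exonic bases with *Thra* on the opposite strand. *Dbp* shares 539 with *Sphk2*, *Cry2* 295 with D930015M05Rik, *Bhlhe40* 118 with 0610040F04Rik and *Arntl* 33 with Gm45355. The libraries were made with a strand-specific kit, but the strand setting of the counting was not given in the sources used here, so counts of these 5 genes could include reads of their antisense neighbours.

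*Nr1d2* (chromosome 14, 18204054 to 18239127, minus strand) had 4.60, 7.66 and 6.87 CPM in WT vehicle and 7.20, 7.58 and 11.7 CPM in WT PF. In AMPKβ1−/− BMDMs it reached 18.7, 19.8 and 20.4 CPM under vehicle and 27.4, 22.4 and 27.3 CPM under PF. Every AMPKβ1−/− library was above every WT library, and in AMPKβ1−/− BMDMs each PF library was above each vehicle library. The genotype difference was 1.61 on the log2 scale (SE 0.19, edgeR adjusted p = 3.26e-05) with vehicle and 1.53 (SE 0.18, adjusted p = 1.62e-05) with PF. GC-adjusted, it was 1.23 (adjusted p = 1.83e-05) and 1.31 (adjusted p = 9.54e-07). The third decile of GC, to which *Nr1d2* belongs with 46.8% GC, had a median difference of 0.42 with vehicle and 0.20 with PF. The PF responses were 0.47 (SE 0.21, adjusted p = 0.119) in WT and 0.39 (SE 0.17, adjusted p = 0.950) in AMPKβ1−/− BMDMs, with 0.08 between them (95% interval −0.48 to 0.65, adjusted p = 0.908). Without WT PF library 1 the WT response passed (adjusted p = 0.0455).

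*Dbp* (chromosome 7, 45705088 to 45710203, plus strand) encodes a D-box-binding activator and is a standard readout of CLOCK:BMAL1 output. It had 40.4, 35.9 and 33.0 CPM in WT vehicle and 37.2, 33.9 and 36.5 CPM in WT PF, while AMPKβ1−/− libraries held 25.3, 25.0 and 20.9 CPM (vehicle) and 26.4, 27.5 and 25.5 CPM (PF). All 6 AMPKβ1−/− libraries lay below all 6 WT libraries. PF gave a log2 fold change of −0.02 in WT (95% interval −0.24 to 0.20, edgeR adjusted p = 0.889) and 0.15 in AMPKβ1−/− BMDMs (95% interval −0.07 to 0.38, adjusted p = 0.982). Between genotypes *Dbp* was lower, with a log2 fold change of −0.61 (SE 0.11, edgeR adjusted p = 0.000254) with vehicle and −0.44 (SE 0.10, adjusted p = 0.00321) with PF. *Dbp* has 59.4% GC, and the median of its decile was −0.41 with vehicle and −0.19 with PF. The GC-adjusted differences were −0.17 (adjusted p = 0.185) and −0.20 (adjusted p = 0.0992), and neither passed.

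*Bhlhe40* (chromosome 6, 108660629 to 108666925, plus strand) encodes DEC1, a repressor that competes with CLOCK:BMAL1 for E-boxes and also acts in macrophage and T cell responses. It had 21.7, 20.03 and 23.1 CPM in WT vehicle and 33.8, 31.7 and 31.8 CPM in WT PF. In AMPKβ1−/− BMDMs it had 12.03, 12.8 and 11.98 CPM under vehicle and 11.2, 12.2 and 12.9 CPM under PF. The libraries lay at 3 levels, with WT PF on top, WT vehicle in the middle and both AMPKβ1−/− groups, which overlapped, at the bottom. *Bhlhe40* rose with PF in WT by 0.59 (SE 0.10, edgeR adjusted p = 0.00291), rank 109 by p of 10822 genes. In AMPKβ1−/− BMDMs the log2 fold change was −0.02 (95% interval −0.26 to 0.21, adjusted p = 0.989). The responses differed by 0.61 (SE 0.15, 95% interval 0.29 to 0.93, adjusted p = 0.0904), and by 0.62 when GC-adjusted (adjusted p = 0.0293). The range of that adjusted p over 21 alternatives was 0.0293 to 0.274. Between genotypes *Bhlhe40* was lower, with a log2 fold change of −0.81 (SE 0.11, edgeR adjusted p = 5.75e-05) with vehicle and −1.42 (SE 0.10, adjusted p = 3.55e-07) with PF, the latter at rank 14 by p. GC-adjusted, these were −0.67 (adjusted p = 8.20e-05) and −1.29 (adjusted p = 1.66e-08). *Bhlhe40* has 51.4% GC, close to the median of tested genes (50.8%).

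The wider list of clock genes held 29 genes, of which 26 were in the counts and 24 were tested. With PF in WT, 4 of 24 rose and 1 fell, where 6.99% of tested genes rose and 8.95% fell. Among those that rose were *Bhlhe41*, the paralog of *Bhlhe40*, *Cipc*, which encodes an inhibitor of CLOCK, and *Nampt*, the NAD+ salvage enzyme. *Tef*, a relative of *Dbp*, fell. *Bhlhe41* had 45.1, 51.1 and 61.4 CPM in WT vehicle and 80.4, 79.7 and 91.2 CPM in WT PF, and 46.0 to 53.6 CPM in the 6 AMPKβ1−/− libraries. *Cipc* had 35.2, 41.4 and 40.4 CPM in WT vehicle and 59.1, 57.7 and 63.0 CPM in WT PF, and 31.5 to 36.2 CPM in the AMPKβ1−/− libraries. For both genes WT PF stood above all other libraries. The log2 fold change in WT was 0.67 (SE 0.10, edgeR adjusted p = 0.00166) for *Bhlhe41* and 0.62 (SE 0.09, adjusted p = 0.00100) for *Cipc*. In AMPKβ1−/− BMDMs these were 0.07 (adjusted p = 0.982) and 0.11 (adjusted p = 0.982). The difference of the responses was 0.60 (adjusted p = 0.0901) for *Bhlhe41* and 0.51 (adjusted p = 0.0841) for *Cipc*.

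**Figure D3:**
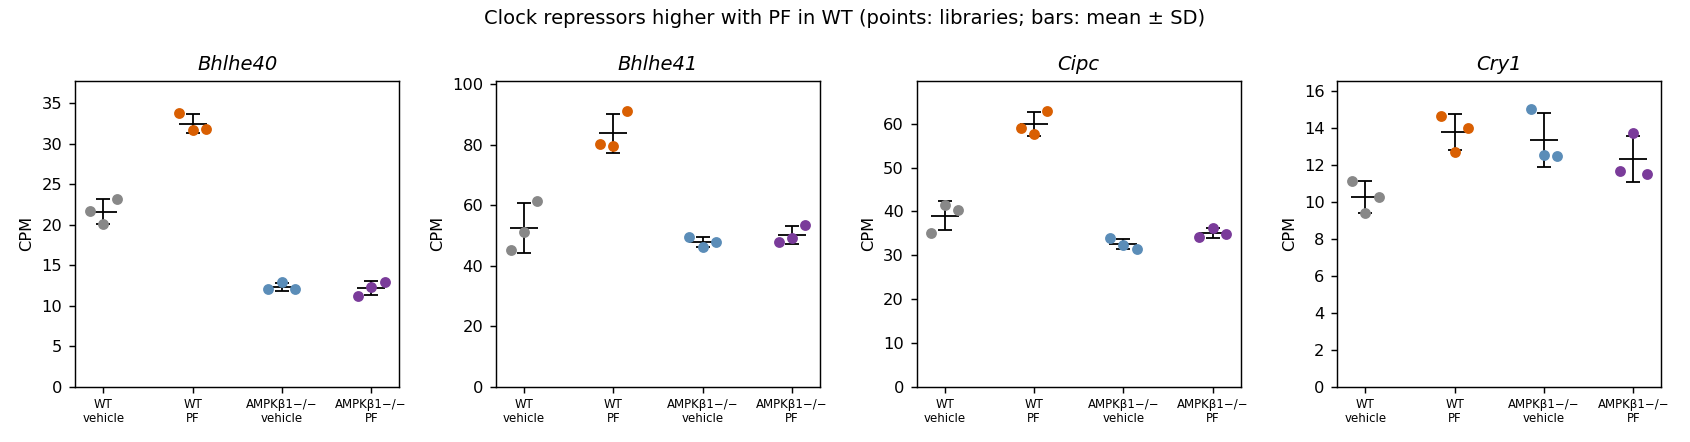
CPM of *Bhlhe40*, *Bhlhe41*, *Cipc* and *Cry1*, the repressors of CLOCK:BMAL1 that rose with PF in WT, with a point for each library and bars for the mean ± SD of 3 libraries on linear axes from 0. WT PF is the top group for the first 3 genes, and for *Cry1* it overlaps both AMPKβ1−/− groups.

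*Nampt* had 27.6, 48.7 and 43.0 CPM in WT vehicle and 54.0, 64.9 and 84.2 CPM in WT PF, a log2 fold change of 0.76 (SE 0.20, edgeR adjusted p = 0.0247). *Tef* had 145, 128 and 134 CPM and 108, 102 and 111 CPM, a log2 fold change of −0.35 (SE 0.08, edgeR adjusted p = 0.0160). The WT groups overlapped for neither gene. Of the GC-adjusted values, *Nampt* passed at 0.35 (adjusted p = 0.0117) and *Tef* did not at −0.15 (adjusted p = 0.229). Single libraries decided both calls: *Nampt* lost it without WT vehicle 1 or 3 or WT PF 2 or 3 (edgeR adjusted p = 0.0623 to 0.120), and *Tef* without WT vehicle 1 or WT PF 2 (0.0634 and 0.0756). By edgeR 0 of the 24 wider genes passed in AMPKβ1−/− BMDMs with PF, as by DESeq2 and limma-voom, with 2 of 24, *Tef* among them, at an unadjusted p below 0.05 (4.98% of tested genes). In the test of the difference between responses edgeR called 0 of 24, where 0.416% of tested genes passed, limma-voom 0 (0.397%) and DESeq2 2, *Bhlhe41* and *Cipc* (1.76%). The unadjusted p in it was below 0.05 for 3 of 24, *Bhlhe41*, *Cipc* and *Nampt*, against 14.3% of tested genes. These passed after adjustment in the GC-adjusted fit (adjusted p = 0.0175, 0.0277 and 0.00535), where 1.44% of tested genes did. *Nampt* had 84.8 ± 14.2 CPM in AMPKβ1−/− vehicle and 85.6 ± 6.34 CPM in AMPKβ1−/− PF. Its PF response there was 0.01 (edgeR adjusted p = 0.993), and −0.33 when GC-adjusted (adjusted p = 0.132). The GC-adjusted difference for *Nampt* thus joins a rise in WT with a negative value in AMPKβ1−/− BMDMs that did not pass.

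Between the vehicle groups, 8 of the 24 wider genes were higher in AMPKβ1−/− BMDMs and 9 lower, where 29.7% and 30.0% of tested genes were. The higher ones included *Rora*, the activator of *Arntl*, *Sirt1*, *Nampt*, *Gsk3b*, *Ncor1*, *Usp7* and *Sfpq*, from 0.45 (*Sfpq*) to 2.09 (*Rora*) on the log2 scale. *Rora* had 0.641 to 1.99 CPM in WT vehicle and 6.11 to 7.17 CPM in AMPKβ1−/− vehicle, and its GC-adjusted difference was 1.37 (edgeR adjusted p = 0.000223). The lower ones were *Nfil3*, *Timeless*, *Hdac3*, *Ddb1*, *Btrc*, *Usp2*, *Tef*, *Cipc* and *Csnk1d*, from −0.55 (*Nfil3*) to −0.20 (*Csnk1d*). GC-adjusted, 6 wider genes were higher and 3 lower, and the direction turned for *Nampt* (−0.20, edgeR adjusted p = 0.0530, in place of 1.09) and *Usp7* (−0.13), while *Cipc*, *Tef* and *Usp2* lay at 0.00, 0.02 and 0.01. Calls were also lost in that fit for *Nfil3* (−0.26, edgeR adjusted p = 0.127), *Gsk3b* (0.20, adjusted p = 0.145), *Timeless* (−0.39, adjusted p = 0.0623) and *Csnk1d* (−0.07, adjusted p = 0.336). With library size alone *Csnk1d* was at 0.01, and *Nfil3* at −0.34 did not pass (edgeR adjusted p = 0.0621). On that scale *Btrc* (edgeR adjusted p = 0.13), *Tef*, *Cipc*, *Usp2* and *Timeless* lost their calls as well. Of the lower genes only *Ddb1* and *Hdac3* kept theirs, and the higher genes named above kept theirs too. The calls of *Cipc*, *Csnk1d*, *Usp2* and *Timeless* were each lost without single libraries (edgeR adjusted p up to 0.149), among them AMPKβ1−/− vehicle 3 for all 4. With PF in both genotypes, 7 were higher (among them *Rora*, *Sirt1*, *Ncor1*, *Sfpq*, *Gsk3b* and *Usp7*, the last at −0.08 when GC-adjusted) and 5 lower, where 24.1% and 22.9% of tested genes were. The 5 lower genes included 3 repressors of the loop, *Ciart* at −1.24 (SE 0.28, adjusted p = 0.00214), *Cipc* at −0.77 (SE 0.09, adjusted p = 9.85e-06) and *Bhlhe41* at −0.74 (SE 0.10, adjusted p = 6.65e-05), and these passed when GC-adjusted as well. *Ciart* was measured on few counts, with 1.85 to 2.49 CPM in WT PF and 0.784 to 1.18 CPM in AMPKβ1−/− PF. The remaining lower genes were *Ddb1* at −0.27 (adjusted p = 0.0138) and *Hdac3* at −0.24 (adjusted p = 0.0482). Neither passed when GC-adjusted, with library size alone or without WT PF 1 (edgeR adjusted p = 0.0733 and 0.187 in the last). *Ddb1* kept its call in 19 of 22 alternatives, and *Hdac3* in 8 of 22, losing it by DESeq2 among others. *Gsk3b* also lost its call when GC-adjusted (0.18, edgeR adjusted p = 0.151) and without WT PF 1 or 2 or AMPKβ1−/− PF 1 or 3 (0.0594 to 0.0734). *Nampt* was at 0.34 between the PF groups (edgeR adjusted p = 0.166), and at −0.88 when GC-adjusted, where it passed as lower (adjusted p = 1.32e-07).

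**Figure D4:**
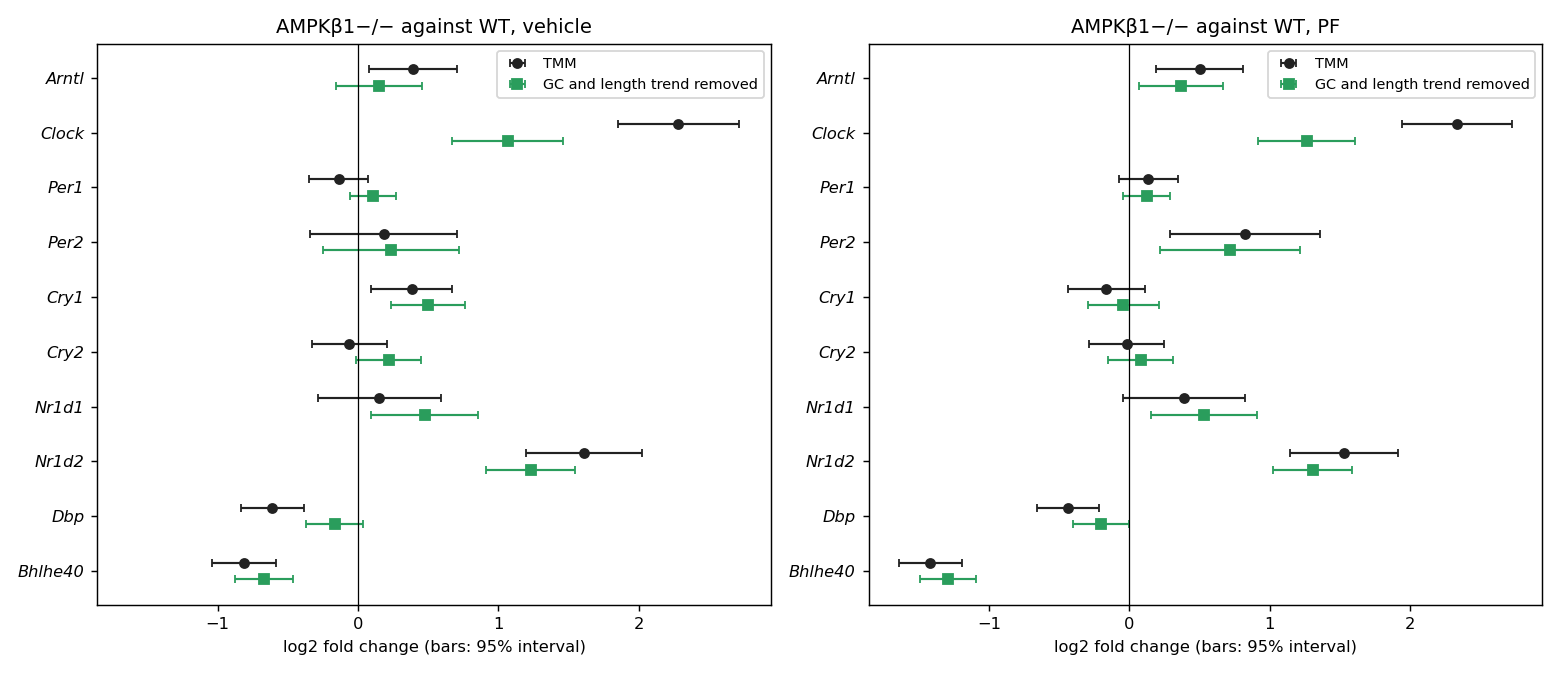
Log2 fold change of AMPKβ1−/− against WT with vehicle (left) and with PF (right) and 95% intervals, with TMM alone (circles) and GC-adjusted (squares). *Clock*, *Nr1d2* and *Bhlhe40* lie away from 0 on both scales, and the *Dbp* interval includes 0 in the GC-adjusted fit.

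Seen against GC content, the PF response in WT of *Bhlhe40* and *Cry1* lay above the 90th percentile of the genes in their decile (0.260), whose median was −0.06. *Clock* (0.44 against a decile median of 0.47), *Cry2* (−0.22 against −0.18) and *Nr1d1* (−0.18 against −0.22) lay near the median of theirs. *Per2* (−0.55) was below the 10th percentile of its decile (−0.359), while its 95% interval reached 0.01. Between the vehicle groups *Clock* (2.28) was above the 90th percentile of its decile (2.03) and *Nr1d2* (1.61) above that of its own (1.09). *Nr1d1* (0.15) was also above the 90th percentile of its decile (−0.0336), while its 95% interval was −0.29 to 0.59. *Bhlhe40* (−0.81) was below the 10th percentile (−0.515).

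**Figure D5:**
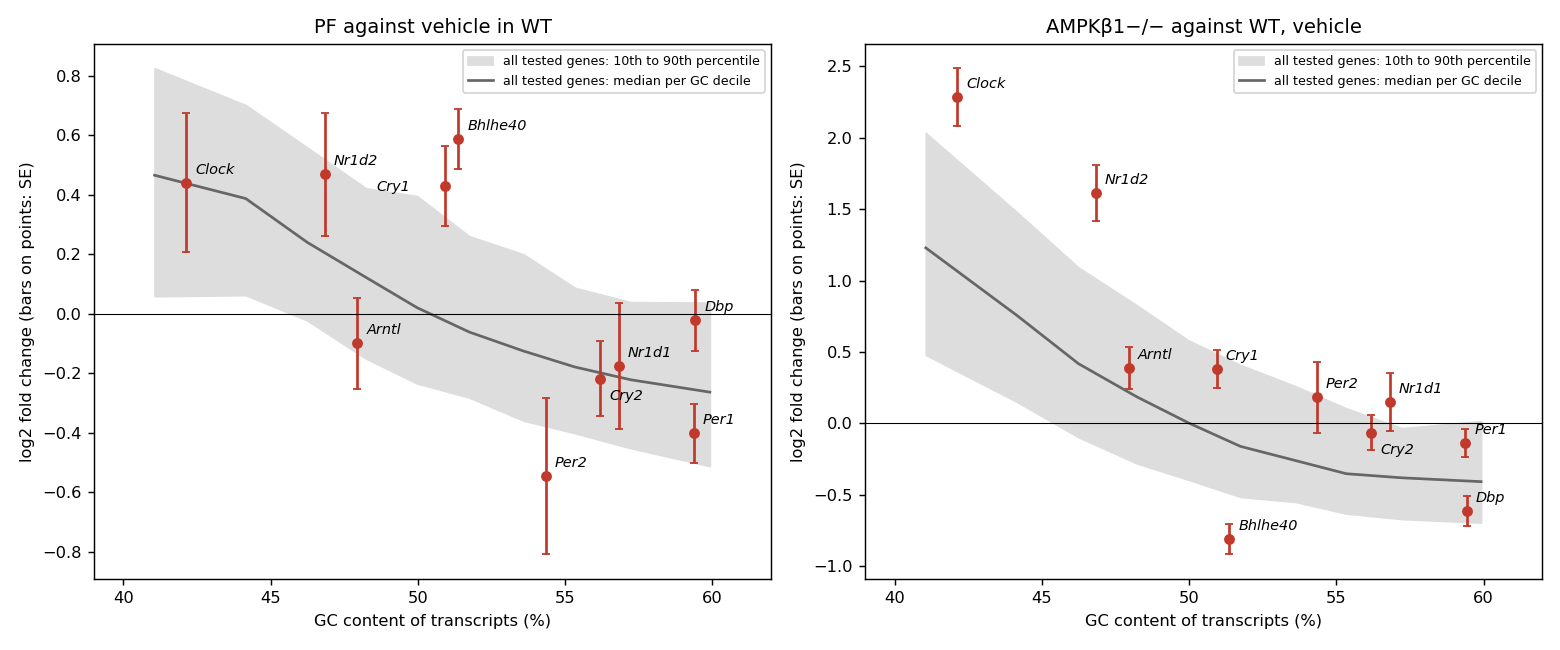
Log2 fold change of each clock gene (points, with SE) against the GC content of its transcripts, for PF against vehicle in WT (left) and AMPKβ1−/− against WT with vehicle (right). The line is the median and the grey band the 10th to 90th percentile of all tested genes in 10 GC deciles, and both contrasts slope downward with GC.

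The genes whose pattern over the 12 libraries was nearest to *Cry1*, by the root mean square difference of gene-centred log2 CPM, were *Rffl* (0.117), *Ttc1* (0.122) and *Slc35b3* (0.124), where *Cry1* itself varied by 0.194 about its mean. For *Cry2*, which varied by 0.138, they were *Zfp956* (0.0694), *Slc8b1* (0.0696) and *Mef2d* (0.0704). On the GC-adjusted scale the nearest genes were others, *Srxn1*, *Rnaseh1* and *Gsr* for *Cry1* (0.112 to 0.121) and *Ulk1*, *Gnaq* and *Sppl3* for *Cry2* (0.0694 to 0.0750).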

How the data were processed

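RNA sequencing libraries of BMDMs were compared in 4 groups of 3. The authors trimmed paired-end reads with Trim Galore and quantified them with Salmon (tools as in the submitters' processing notes, versions and genome build not given in the sources used here), and deposited estimated counts per gene symbol, which were rounded to whole numbers before testing. The columns name the group of each library, and library numbers are those in the column names. Counts of 10822 genes that passed filterByExpr were fitted by edgeR 4.0.16 (R 4.3.3) with TMM normalization and robust quasi-likelihood over all 12 libraries as 4 group means, and 5 contrasts were tested two-sided with Benjamini-Hochberg adjustment over all tested genes. SE and 95% intervals were derived from the fold change and F statistic. CPM are normalized by TMM.

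A further fit removed the trend of each library with GC content and length (splines with 5 degrees of freedom) through offsets, and its values are called GC-adjusted. GC content and length came from GENCODE M21 (of the genes, 12703 had its symbol, 193 were found through an older one and 64 were not found). The other alternatives were other scalings, filters, DESeq2 1.42.0, limma-voom 3.58.1, the libraries of a contrast alone, leaving out each library and, chosen after seeing the data, the library number as a block. The fitting was tested on simulated counts with the same dispersion for every gene and no trend with GC content or length. That test therefore does not cover the GC-adjusted fit or the spread of the real libraries. No 2 libraries held identical values, and replicates of a group differed by 2.16 to 17.8 in chi-square per degree of freedom.

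The text names the 10 members, the wider genes that passed a test (1 of them is counted but not reported here), and the 3 genes nearest to *Cry1* and *Cry2*. The members and lists were chosen with earlier results of these data known.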

Additional observations from a re-analysis of the deposited data

How the results depend on the processing

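The number of clock genes that passed with PF in WT was 3, and 1 with only the libraries of that contrast. It ranged from 1 to 3 over the fits without 1 library, being 1 when the one left out was WT vehicle 3, WT PF 2 or WT PF 3. For the difference of the responses it was 0, and 1 when GC-adjusted. In AMPKβ1−/− BMDMs it was 0 in every fit. *Bhlhe40* in WT passed under all 22 alternatives, as did *Clock*, *Nr1d2* and *Bhlhe40* between genotypes. *Cry1* in WT lost its call in 12 of 22. Leaving out 1 library gave 4 to 6 clock genes between the vehicle groups and 5 to 6 between the PF groups, where 48.4 to 60.9% and 35.8 to 50% of tested genes passed. The causes were not tested.

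Over all tested genes, PF in WT gave 327 higher and 415 lower in the GC-adjusted fit and 210 and 209 with the libraries of the contrast alone, against 756 and 969. It gave 1622 and 1621 without WT PF library 1 and 186 and 353, 260 and 439, 185 and 268, and 129 and 217 without WT vehicle 1, WT vehicle 3, WT PF 2 and WT PF 3. In AMPKβ1−/− BMDMs it gave 48 and 1 by DESeq2, 21 and 0 by limma-voom, 58 and 4 with the libraries of the contrast alone and 3 and 0 in the GC-adjusted fit, against 6 and 0, and from 0 to 18 higher and 0 lower without 1 library. The difference of the responses gave 70 and 120 by DESeq2 and 69 and 87 in the GC-adjusted fit, against 19 and 26, and between 3 and 2 (without AMPKβ1−/− vehicle 2) and 133 and 151 (without WT PF 1). AMPKβ1−/− against WT with vehicle gave 1626 and 2366 in the GC-adjusted fit, against 3216 and 3249.

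Directions turned for the log2 fold changes below, of which those of *Nampt*, *Usp7*, *Cipc*, *Tef*, *Usp2* and *Csnk1d* between genotypes had passed the test (*Nampt* with vehicle, at 1.09). The list covers the 10 clock genes, but not every wider gene that had not passed. Among the latter, *Csnk1e* went from −0.04 to 0.31 between the vehicle groups when GC-adjusted, where it passed (edgeR adjusted p = 0.00425). In the GC-adjusted fit, the value for PF in WT was 0.0511 for *Nr1d1* and 0.215 for *Dbp*. For PF in AMPKβ1−/− BMDMs it was −0.0126 for *Arntl* and −0.328 for *Nampt*. The difference of the responses was then 0.137 for *Cry2*, −0.0774 for *Nr1d2* and 0.0328 for *Dbp*. Between the vehicle groups it was 0.108 for *Per1*, 0.217 for *Cry2*, 0.00134 for *Cipc*, 0.0177 for *Tef*, 0.00718 for *Usp2*, −0.201 for *Nampt* and −0.131 for *Usp7*, and between the PF groups 0.0809 for *Cry2*, −0.0834 for *Usp7* and −0.881 for *Nampt*. With library size alone, PF in WT gave 0.0592 for *Dbp*, the difference of the responses 0.00974 for *Clock* and 0.0147 for *Cry2*, the vehicle groups 0.0703 for *Per1*, 0.145 for *Cry2* and 0.0127 for *Csnk1d*, and the PF groups 0.130 for *Cry2*. Upper quartile scaling gave 0.00769 for *Dbp* with PF in WT and 0.00503 for *Cry2* between the PF groups, where a minimum of 10 counts in every library gave 0.000577.

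Leaving out 1 library gave ranges across 0 for PF in WT of −0.188 to 0.0345 for *Arntl*, −0.337 to 0.0266 for *Nr1d1* and −0.0887 to 0.0569 for *Dbp*. For PF in AMPKβ1−/− BMDMs they were −0.0251 to 0.0788 for *Arntl*, −0.0203 to 0.164 for *Nr1d1* and −0.0668 to 0.0312 for *Bhlhe40*. For the difference of the responses they were −0.202 to 0.0210 for *Arntl*, −0.199 to 0.125 for *Clock*, −0.112 to 0.0382 for *Cry2* and −0.182 to 0.239 for *Nr1d2*. For *Cry2* between genotypes they were −0.132 to 0.00457 with vehicle and −0.0980 to 0.0324 with PF.

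The columns carry library numbers 1 to 3 in each group, and nothing in the sources says that a number marks a shared animal, batch or day. Of 18 pairs of same-numbered libraries, 6 had deviations from their group means that correlated above 0.1 (range −0.184 to 0.317, against −0.388 to 0.324 for other pairs), and 1 of 12 libraries correlated best with its own number in every other group, so the numbers were not taken as pairs. With the number as a replicate block, an alternative chosen after seeing the data, edgeR called 3, 0, 0, 6 and 6 clock genes for PF in WT, PF in AMPKβ1−/− BMDMs, the difference of the responses, and genotype with vehicle and with PF, as without it. Over all tested genes the block gave 889 and 1094, 0 and 0 (635 at an unadjusted p below 0.05), 16 and 31, 3208 and 3238, and 2699 and 2486 higher and lower.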
